A study of Mus musculus with 9 samples.

Results

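The enzymes and binding proteins that write, copy, read and erase DNA methylation were followed across mouse osteosarcoma lines, osteoblasts and pre-osteoblasts. Members were taken by gene symbol from probe sets that name a single gene: Dnmt1, Dnmt3a, Dnmt3b, Dnmt3l, Uhrf1, Tet1, Tet2, Tet3, Mbd2 and Tdg. Of these 10 genes, 9 were measured, among 19938 genes on the arrays. The thymine DNA glycosylase gene Tdg was represented only by 4 probe sets that name it together with its pseudogene Tdg-ps2, so its level is not given.

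Total RNA from 9 samples was labelled with biotin and hybridised to 1 array each. The 3 osteosarcoma arrays held lines 493H (female), 494H (male) and 716H (female), from tumours of adult C57BL/6 mice of genotype Osx-Cre p53fl/fl Rbfl/fl. In that model Cre acts under the Osterix promoter, in the osteoblast lineage. The lines themselves are labelled p53-/- Rb-/- and fibroblastic, and were harvested subconfluent and below passage 8. The 3 osteoblast arrays held Kusa4b10, a mouse bone marrow stromal line, differentiated over 21 days with ascorbate in the medium. The 3 pre-osteoblast arrays held undifferentiated Kusa4b10. Each osteosarcoma value is 1 array of a different line, whereas both Kusa4b10 groups come from a single line. Line of origin and tumour state cannot be told apart here, and neither can differentiation and the weeks in culture, the medium or the state of growth. The titles number the Kusa4b10 cultures as independent samples without saying in what way, and p-values measure the spread between these samples.

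In mammals, DNMT3A and DNMT3B place new methyl groups on cytosines, mostly at CpG sites, with DNMT3L as a cofactor that has no catalytic activity of its own. DNMT1 copies the marks onto the new strand behind the replication fork, where UHRF1 recognises hemimethylated DNA and brings DNMT1 to it. TET1, TET2 and TET3 oxidise 5-methylcytosine, TDG excises the oxidised bases, and MBD2 binds methylated DNA and recruits a repressor complex. Genes for DNA synthesis, including those for the copying step, are commonly transcribed in late G1 and S phase by E2F factors, which the retinoblastoma protein restrains.

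Promoter sequences are shown first for Dnmt1 and Uhrf1, which together copy methylation and whose levels moved with S phase genes. RefSeq windows of 300 bases, from 250 before to 50 after an annotated start (GRCm38.p6), were available for 9 of the 10 genes, in 16 windows. Both strands were searched for the E2F-type words TTTCCCGC, TTTGGCGC, TTTCGCGC and TTTGCCGC, which overlap each other where they share their GC-rich core. Capitals mark the matches.
Dnmt1, chr9:20952574-20952873, minus strand: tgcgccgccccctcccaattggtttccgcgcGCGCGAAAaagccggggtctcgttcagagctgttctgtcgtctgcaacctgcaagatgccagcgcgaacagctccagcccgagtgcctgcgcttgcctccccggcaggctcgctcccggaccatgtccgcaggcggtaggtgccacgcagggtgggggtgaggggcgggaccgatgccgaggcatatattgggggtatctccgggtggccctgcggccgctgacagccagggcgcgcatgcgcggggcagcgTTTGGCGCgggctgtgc
Uhrf1, chr17:56304063-56304362, plus strand: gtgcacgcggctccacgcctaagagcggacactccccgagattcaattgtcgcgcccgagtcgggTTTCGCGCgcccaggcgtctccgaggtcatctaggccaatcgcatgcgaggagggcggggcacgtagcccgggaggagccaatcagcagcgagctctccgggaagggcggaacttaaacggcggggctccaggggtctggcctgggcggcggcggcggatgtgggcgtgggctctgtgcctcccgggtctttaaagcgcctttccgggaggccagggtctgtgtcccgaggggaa
Short stretches around matches in partner and replication genes are shown as examples, taken only from genes with a match. Mcm3 and Cdc6 also had a match. Cdca7l, Pcna, Rrm2, Mcm2 and E2f1 were looked up too and gave no stretch, either for lack of a match or for lack of a window.
Hells, chr19:38930919-38930946, plus strand: ccaccgggtTTTCCCGCgaaagagaagc
Cdca7, chr2:72476139-72476166, plus strand: cgtcccggcGCGGGAAAgccggtggccc
Mcm5, chr8:75109347-75109374, plus strand: gccaagaacTTTCGCGCCAAAacgtcca
Mcm6, chr1:128359797-128359824, minus strand: gcgtatgctTTTGGCGCGAAAagtgcgt
The Dnmt1 window holds a match on each strand, and the Uhrf1 window holds 1 match. In Mcm5 and Mcm6 the capitals cover overlapping matches on opposite strands. Dnmt1 had a match in 1 of its 3 windows and Uhrf1 in 1 of its 2, and the windows of Dnmt3a, Dnmt3b, Dnmt3l, Tet1, Tet2, Tet3 and Tdg held none of these words. Such a word was present in 2.26% of all 32851 windows, in 35.1% of the 37 windows of S phase genes and in 5% of the 20 windows of mitosis genes. Each of the 4 words contains a CpG site. Median counts of CpG sites per window were 7 over all windows, 22 for S phase genes, 25 for mitosis genes and 20 for the methylation genes. The shares were not adjusted for this difference in base composition. Which start these cells use was not measured, and a match is a description of letters only.

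Dnmt1 and Uhrf1 were high in the osteosarcoma lines and in pre-osteoblasts and low in osteoblasts. Values are log2 expression levels, on which a difference of 1 is a doubling. Dnmt1 stood at 11.30, 11.66 and 11.36 in lines 493H, 494H and 716H, at 9.36, 9.84 and 9.39 in osteoblasts and at 10.45, 11.21 and 10.90 in pre-osteoblasts. No pair of groups overlapped for Dnmt1, and the osteoblasts lay lowest. In a linear model with empirical Bayes variances (limma, adjusted over all genes), Dnmt1 was higher in osteosarcoma than in osteoblasts by 1.91 ± 0.21 (SE), or 3.75-fold, at an adjusted p of 0.000428. Against pre-osteoblasts the osteosarcoma lines differed by 0.58 ± 0.21 (95% interval 0.10 to 1.06), which did not pass (adjusted p = 0.0820), but did pass when pre-osteoblast sample 2 was left out (0.76, adjusted p = 0.0397). Osteoblasts lay below pre-osteoblasts by 2.50-fold (-1.32 ± 0.21, adjusted p = 0.00239).

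Uhrf1 stood at 10.32, 10.72 and 10.06 in the osteosarcoma lines, at 7.91, 8.80 and 8.01 in osteoblasts and at 9.62, 10.57 and 10.21 in pre-osteoblasts. Osteosarcoma and pre-osteoblast values overlapped, and the osteoblasts lay below both. The difference was 2.13 ± 0.31 for osteosarcoma against osteoblasts (4.36-fold, adjusted p = 0.00149 by limma) and -1.89 ± 0.31 for osteoblasts against pre-osteoblasts (3.72-fold lower, adjusted p = 0.00272). For osteosarcoma against pre-osteoblasts it was 0.23 ± 0.31 (95% interval -0.48 to 0.94, adjusted p = 0.668), and it turned to -0.024 without pre-osteoblast sample 1.

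Over the 9 measured genes, osteosarcoma differed from osteoblasts in 4 (2 higher, 2 lower), against 27.4% of all genes at the 0.05 threshold on adjusted p (14.7% higher, 12.7% lower). It differed from pre-osteoblasts in 5 (2 higher, 3 lower; 23.5% of all genes, 9.96% higher and 13.5% lower), and in 3 without line 493H or without pre-osteoblast sample 1. Osteoblasts differed from pre-osteoblasts in 4 (1 higher, 3 lower; 26.1% of all genes, 10.3% higher and 15.8% lower). Groups did not overlap for 7 of the 9 genes in osteosarcoma against osteoblasts, where 38.7% of all genes did not, for 6 in osteosarcoma against pre-osteoblasts (35.6%) and for 4 in osteoblasts against pre-osteoblasts (44.2%). Median differences over the 9 genes were -0.068, -0.083 and -0.042, against -0.018, -0.016 and -0.0037 over all genes.

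**Figure D1:**
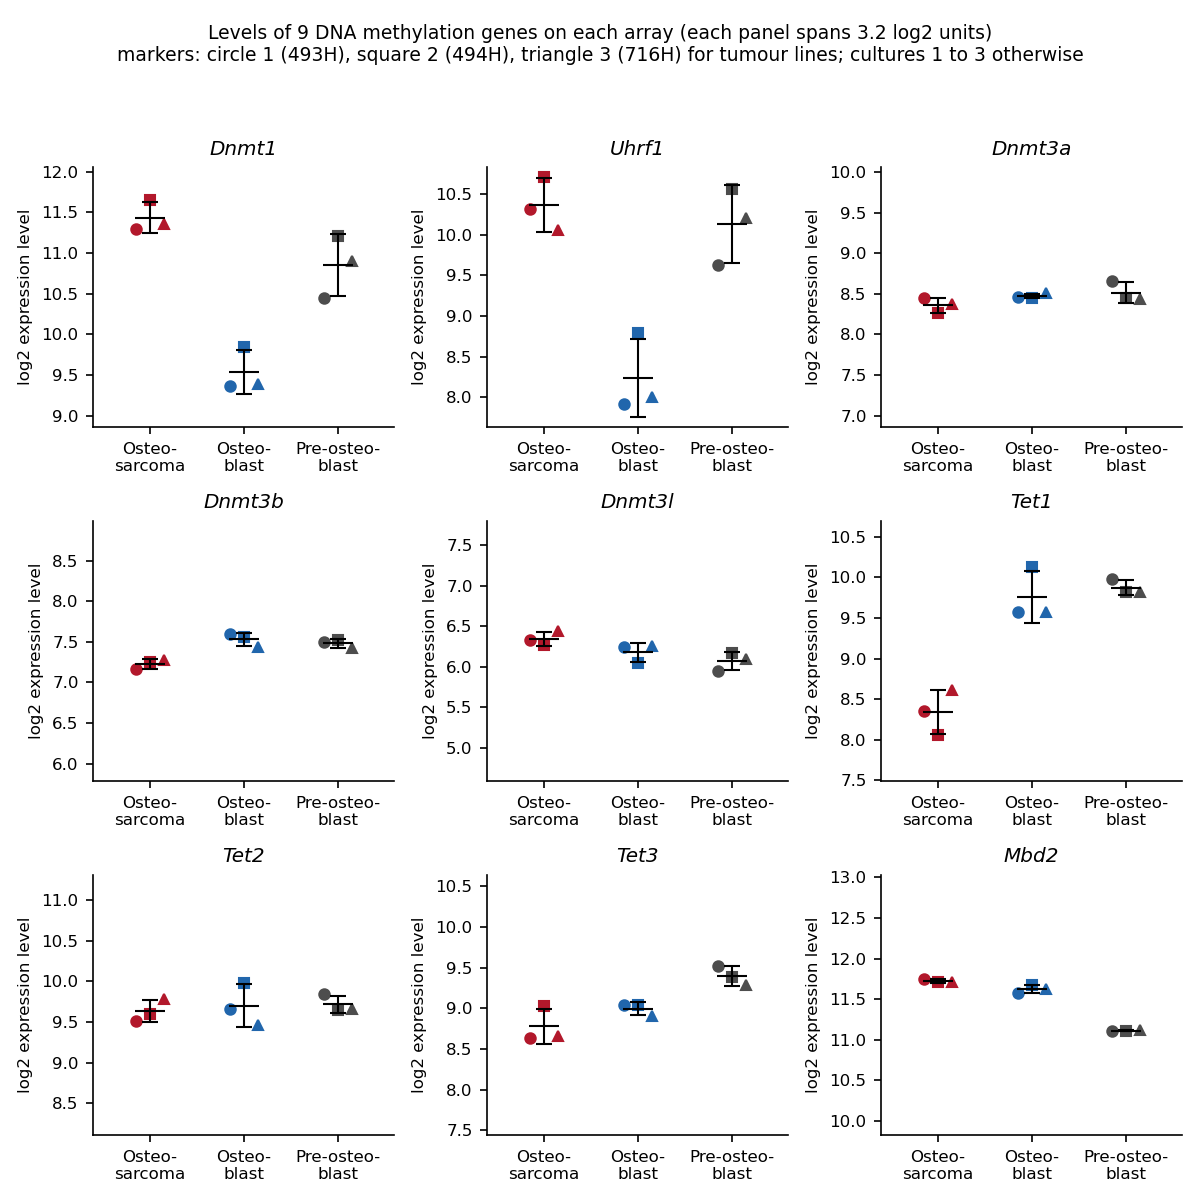
Log2 expression level (vertical axis) of the 9 measured genes in each array, with osteosarcoma, osteoblast and pre-osteoblast arrays from left to right; points are arrays and bars are group means with SD. Dnmt1 and Uhrf1 are lowest in osteoblasts (means 9.53 and 8.24), and Tet1 is lowest in osteosarcoma (mean 8.34).

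**Figure D2:**
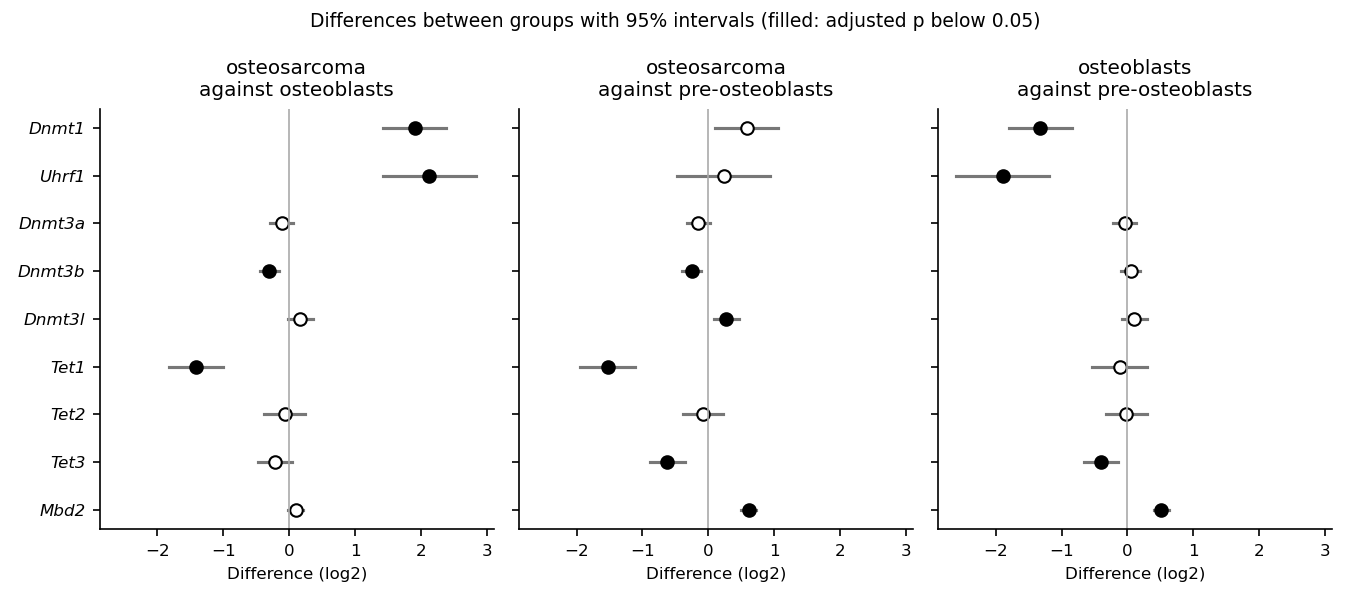
Difference in log2 level for each gene in each of the 3 comparisons, with its 95% interval from limma and filled points where the adjusted p is below 0.05. Tet1 lies at -1.41 and -1.53 in the 2 osteosarcoma comparisons, and Mbd2 lies at 0.61 against pre-osteoblasts.

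The copying enzymes were set against proliferation markers measured on the same arrays. The mean level of 39 S phase and replication genes (an index that does not include the methylation genes) was 10.30, 10.62 and 10.12 for the tumour lines, 8.72, 9.06 and 8.65 in osteoblasts and 9.50, 10.36 and 9.97 in pre-osteoblasts. Osteosarcoma and pre-osteoblast arrays overlapped in this index, while osteoblasts lay below both. Of the 39 genes, 37 were higher in osteosarcoma than in osteoblasts (median difference 1.55) and 31 were lower in osteoblasts than in pre-osteoblasts (median -1.20). Only 5 were higher in osteosarcoma than in pre-osteoblasts (median 0.44), a count that fell to 2 without line 493H, line 494H, osteoblast sample 1, pre-osteoblast sample 1 or pre-osteoblast sample 3, to 3 without osteoblast sample 3, and was 12 without pre-osteoblast sample 2. All 23 mitosis genes measured were higher in osteosarcoma than in osteoblasts (median 2.38) and lower in osteoblasts than in pre-osteoblasts (median -2.13). Between osteosarcoma and pre-osteoblasts 0 of them passed limma's adjusted threshold, and 2 had an unadjusted p below 0.05 (median 0.24).

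Single markers were compared next, 3 from the S phase list (Mcm5, Rrm2 and Pcna) and Mki67 and Plk1 from the mitosis list. Mcm5, a helicase subunit, was higher in osteosarcoma than in osteoblasts by 2.12 ± 0.34 (adjusted p = 0.00226), and Rrm2, a subunit of ribonucleotide reductase, by 2.71 ± 0.40 (adjusted p = 0.00169). Mki67, which encodes the proliferation antigen Ki-67, differed by 2.23 ± 0.38 (adjusted p = 0.00339) and the mitotic kinase gene Plk1 by 2.48 ± 0.35 (adjusted p = 0.00139). Pcna, the replication clamp, differed by 0.49 ± 0.17, which did not pass (adjusted p = 0.0695). It passed without line 716H (adjusted p = 0.0418) and without pre-osteoblast sample 1 (adjusted p = 0.0186). That sample is outside this comparison and enters only through the shared estimate of spread, so the difference stayed at 0.49. In osteoblasts against pre-osteoblasts Mcm5, Rrm2, Mki67 and Plk1 were lower by 1.98 to 2.56 (adjusted p of 0.00130 to 0.00486), and Pcna was at -0.03 ± 0.17 (adjusted p = 0.929).

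Dnmt1 lay inside the range of the S phase genes. Its difference between osteosarcoma and osteoblasts was larger than that of 29 of the 39 genes, and its fall in osteoblasts against pre-osteoblasts was exceeded by 13 of them. Uhrf1 lay nearer the edge: 34 of 39 genes had a smaller difference in osteosarcoma against osteoblasts, and 2 had a larger fall in osteoblasts against pre-osteoblasts. The other 7 methylation genes lay below all 39 in osteosarcoma against osteoblasts. Tet1 and Tet3 also lay below all 39 in osteosarcoma against pre-osteoblasts, and Dnmt3b, Dnmt3l, Tet2 and Mbd2 lay above all 39 in osteoblasts against pre-osteoblasts.

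Within groups, the array with the most S phase signal also had the most Dnmt1 and the most Uhrf1, in all 3 groups. Line 494H exceeded the mean of the other osteosarcoma lines by 0.41 in the index, 0.33 in Dnmt1 and 0.53 in Uhrf1. Osteoblast sample 2 exceeded the other osteoblasts by 0.37, 0.47 and 0.84, and by 1.10 in the mitosis index. Pre-osteoblast sample 1 fell short of the other pre-osteoblasts, with -0.66 in the index, -0.61 in Dnmt1 and -0.76 in Uhrf1. The full order of the 3 arrays matched the index in 2 of 3 groups for Uhrf1 and in 1 of 3 for Dnmt1.

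When the index was subtracted array by array, the group differences of Dnmt1 and Uhrf1 shrank but kept some size. That of Uhrf1 in osteosarcoma against pre-osteoblasts also turned sign, from 0.23 to -0.17. Dnmt1 minus the index averaged 1.09 ± 0.13 over the tumour lines, 0.72 ± 0.08 over osteoblasts and 0.91 ± 0.05 over pre-osteoblasts (SD, n = 3 each). Differences between groups were 0.37 for osteosarcoma against osteoblasts, 0.18 for osteosarcoma against pre-osteoblasts and -0.19 for osteoblasts against pre-osteoblasts. For Uhrf1 the corresponding means were 0.02 ± 0.08, -0.57 ± 0.28 and 0.19 ± 0.06, and the differences were 0.59, -0.17 and -0.76. With the mitosis index in place of the S phase index the osteosarcoma against osteoblast difference turned to -0.54 for Dnmt1 and -0.32 for Uhrf1, and that of osteoblasts against pre-osteoblasts to 0.84 and 0.27. These values are a description, with no test.

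With the index as a covariate in the limma fit, the calls for Dnmt1 and Uhrf1 were lost. Dnmt1 was then 0.53 ± 0.21 for osteosarcoma against osteoblasts (adjusted p = 0.309) and -0.31 ± 0.16 for osteoblasts against pre-osteoblasts (adjusted p = 0.344). Uhrf1 was 0.10 ± 0.30 (adjusted p = 0.930) and -0.40 ± 0.23 (adjusted p = 0.406). The share of all genes called fell to 0.341% for osteosarcoma against osteoblasts and 4.62% for osteoblasts against pre-osteoblasts, and index and group move together there. In osteosarcoma against pre-osteoblasts, where index values overlap, 18.6% of all genes were called, and Tet1 (-1.48 ± 0.22, adjusted p = 0.00464), Tet3 (-0.66 ± 0.14, adjusted p = 0.0169) and Mbd2 (0.60 ± 0.06, adjusted p = 0.00109) passed. In osteosarcoma against osteoblasts 0 of the 9 genes passed. There 2 genes, Dnmt1 and Tet1, had an unadjusted p below 0.05 (0.0344 and 0.0416 by limma). There Tet1 was at -1.22 ± 0.50 (adjusted p = 0.337) and Dnmt3b at -0.36 ± 0.17 (adjusted p = 0.410), about as large as without the index but with larger errors.

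**Figure D3:**
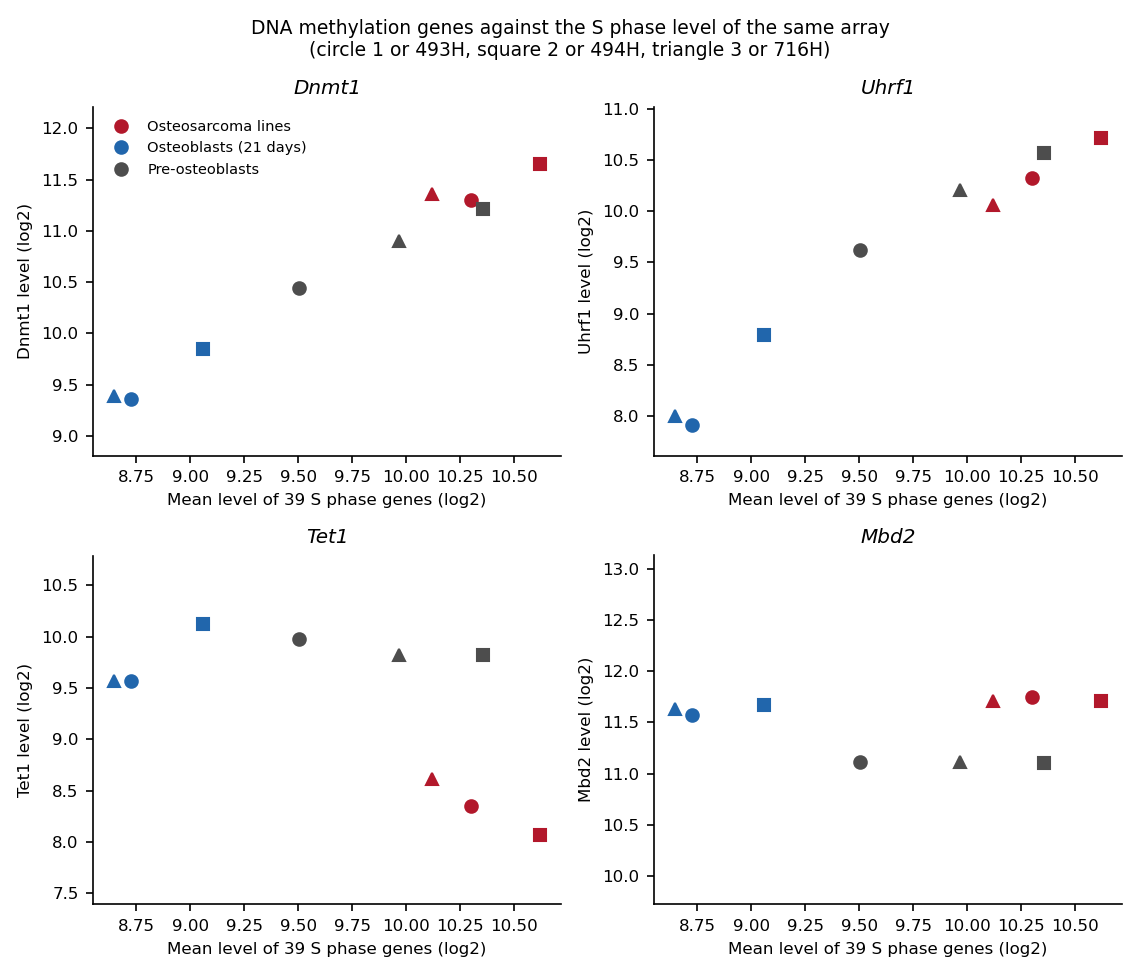
Log2 level of DNA methylation genes (vertical axis) against the mean log2 level of 39 S phase genes on the same array (horizontal axis), 1 point per array, coloured by group. Dnmt1 and Uhrf1 are low in the osteoblast arrays, whose index is 8.65 to 9.06, and high in the osteosarcoma arrays, whose index is 10.12 to 10.62.

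The new-methylation enzymes differed little. Dnmt3a stood at 8.45, 8.26 and 8.37 in osteosarcoma, 8.46, 8.45 and 8.51 in osteoblasts and 8.66, 8.45 and 8.44 in pre-osteoblasts. Its differences were -0.11 (adjusted p = 0.342), -0.15 with a 95% interval of -0.33 to 0.02 (adjusted p = 0.200) and -0.042 with an interval of -0.22 to 0.13 (adjusted p = 0.759) for osteosarcoma against osteoblasts, osteosarcoma against pre-osteoblasts and osteoblasts against pre-osteoblasts. Dnmt3b had 7.16, 7.25 and 7.28 in osteosarcoma, 7.59, 7.56 and 7.44 in osteoblasts and 7.50, 7.52 and 7.42 in pre-osteoblasts, and the osteosarcoma values lay below all others. It was lower in osteosarcoma by 0.30 ± 0.06 than in osteoblasts (adjusted p = 0.00797) and by 0.25 ± 0.06 than in pre-osteoblasts (adjusted p = 0.0208). The second call was lost without line 493H (0.0634) or pre-osteoblast samples 1 (0.0644) or 2 (0.0692).

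Dnmt3l, the cofactor best known from germ cells, had 6.33, 6.27 and 6.44 in osteosarcoma, 6.24, 6.05 and 6.25 in osteoblasts and 5.95, 6.17 and 6.10 in pre-osteoblasts. Its mean over all arrays was at the 20.9th percentile of gene means, in a range where the method compresses differences. It was higher in osteosarcoma than in pre-osteoblasts by 0.28 ± 0.09 (adjusted p = 0.0495), a call lost when any single array other than osteoblast sample 2 was left out (adjusted p of 0.0503 to 0.152).

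Tet1 was lower in all 3 osteosarcoma lines than in any Kusa4b10 culture. Its level was 8.35, 8.06 and 8.61 in osteosarcoma, 9.57, 10.12 and 9.57 in osteoblasts and 9.98, 9.82 and 9.82 in pre-osteoblasts. The osteosarcoma mean of 8.34 ± 0.27 lay 2.66-fold below osteoblasts (-1.41 ± 0.18, adjusted p = 0.000813) and 2.89-fold below pre-osteoblasts (-1.53 ± 0.18, adjusted p = 0.000703; SD and SE, n = 3, limma). Osteoblasts and pre-osteoblasts differed by -0.12 ± 0.18 (95% interval -0.53 to 0.29, adjusted p = 0.699). The call against pre-osteoblasts was made in all 18 alternative settings, and the call against osteoblasts in 17, the exception being the index as a covariate (-1.22, with an SE of 0.50). Line 494H, which had the most S phase signal, had the least Tet1 (0.42 below the mean of the other lines), whereas osteoblast sample 2, the most proliferative of its group, had the most (0.55 above).

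The array carries 3 probe sets for Tet1 with a single symbol, and all 3 were lower in osteosarcoma. In a fit over all 21789 probe sets, chosen after the data were seen, the differences were -0.89, -1.22 and -1.41 against osteoblasts (adjusted p of 0.00628, 0.000919 and 0.000827) and -1.42, -1.53 and -1.53 against pre-osteoblasts (adjusted p of 0.000930, 0.000433 and 0.000719). For osteoblasts against pre-osteoblasts they were -0.52, -0.31 and -0.12, none past the threshold (adjusted p of 0.0620, 0.209 and 0.699).

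**Figure D4:**
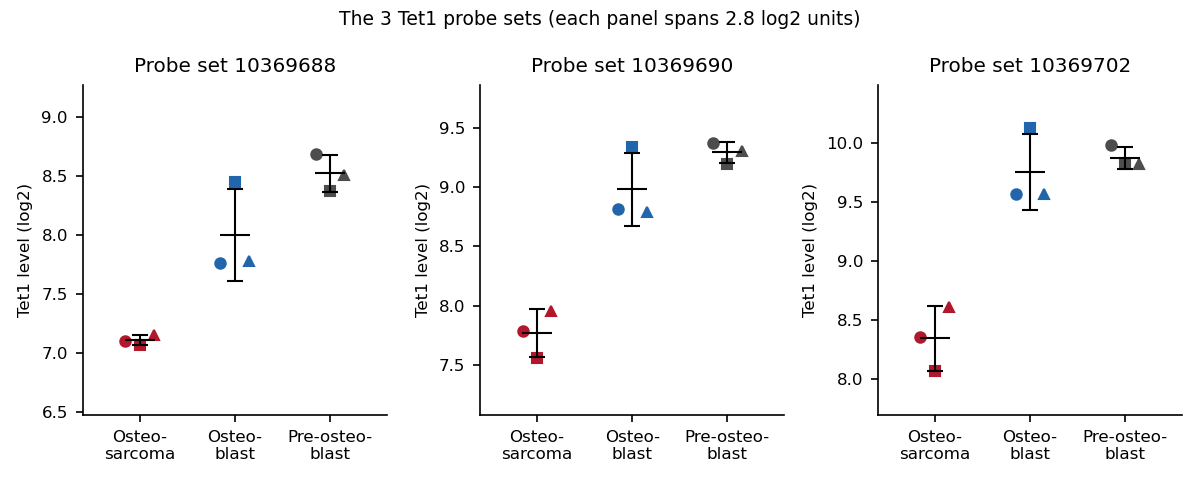
Log2 level of each Tet1 probe set in every array, with osteosarcoma, osteoblast and pre-osteoblast arrays from left to right; points are arrays and bars are group means with SD. In all 3 probe sets the osteosarcoma arrays lie below the Kusa4b10 arrays.

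Tet2 did not separate the groups. It stood at 9.51, 9.60 and 9.79 in osteosarcoma, 9.67, 9.98 and 9.46 in osteoblasts and 9.84, 9.65 and 9.66 in pre-osteoblasts. The intervals of its differences were -0.38 to 0.24, -0.39 to 0.22 and -0.32 to 0.29 in the 3 comparisons (adjusted p of 0.768, 0.730 and 0.956).

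Tet3 stood at 8.64, 9.03 and 8.67 in osteosarcoma, 9.05, 9.05 and 8.90 in osteoblasts and 9.52, 9.38 and 9.29 in pre-osteoblasts, where it was highest. Osteosarcoma was lower than pre-osteoblasts by 0.62 ± 0.11 (1.54-fold, adjusted p = 0.00552), in all 18 alternative settings. Against osteoblasts the difference was -0.22 ± 0.11 (adjusted p = 0.203), and it passed without line 494H (-0.35, adjusted p = 0.0197). Osteoblasts were lower than pre-osteoblasts by 0.40 ± 0.11 (adjusted p = 0.0323), a call lost without any single osteoblast sample (0.0621 to 0.112) or without pre-osteoblast samples 1 (0.106) or 2 (0.0806). A second probe set for Tet3 gave -0.30, -0.69 and -0.39, of which the value against pre-osteoblasts in osteosarcoma passed (adjusted p of 0.196, 0.0124 and 0.0957).

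Mbd2, the reader, varied little within groups and was lowest in pre-osteoblasts. It stood at 11.75, 11.71 and 11.71 in osteosarcoma, 11.57, 11.67 and 11.63 in osteoblasts and 11.11, 11.11 and 11.12 in pre-osteoblasts. Osteosarcoma was higher than pre-osteoblasts by 0.61 ± 0.05 (1.53-fold, adjusted p = 0.000128), and osteoblasts exceeded pre-osteoblasts by 0.51 ± 0.05 (adjusted p = 0.000207). Osteosarcoma and osteoblasts differed by 0.10 ± 0.05 (adjusted p = 0.180), a value that passed when arrays were centred on their medians (0.16, adjusted p = 0.0485).

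The genes most alike to members were sought among 3892 or 3893 candidates per member, not among all 19938 genes. Candidates had a highest group mean above the median gene level of 7.97 and a range over arrays of at least 1 log2. Genes that vary less could therefore not be found. By Pearson's r over the 9 arrays, which fall into 3 groups and so are not independent, Dnmt1 was most like Cenph (0.997), Fancb (0.996) and Chek1 (0.996). Uhrf1 was most like E2f7, Espl1 and Bub1 (0.996 each), Tet1 was most like Sp8 (0.982), Hddc3 (0.977) and Tnfrsf11b (0.971), and Mbd2 was most like Bola1 (0.982), Igf1 (0.977) and Ivns1abp (0.975). Tet3 was most like Prkar2b (0.966), and Tet2 had the weakest nearest gene among these candidates, Tnc (0.867).

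The other genes of the pathway, 56 in 6 lists, were called at 30.4% (11 higher, 6 lower) in osteosarcoma against osteoblasts, 33.9% (8 higher, 11 lower) in osteosarcoma against pre-osteoblasts and 37.5% (4 higher, 17 lower) in osteoblasts against pre-osteoblasts. Over all genes these shares were 27.4%, 23.5% and 26.1%, against which the counts of each list below also stand. Median differences over the 56 genes were 0.045, 0.011 and -0.070. The count for osteosarcoma against pre-osteoblasts, 19, was 11 without pre-osteoblast sample 3.

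Of 9 genes listed as partners, regulators or relatives of the copying enzymes, 4 were higher and 1 lower in osteosarcoma than in osteoblasts. In osteoblasts 5 were lower than in pre-osteoblasts. The lowest difference of this list in osteosarcoma against osteoblasts, -0.38, was that of Dppa3 (means 5.21 and 5.60). Dppa3 had a mean over all arrays at the 10.6th percentile of gene means, in a range where the method compresses differences. Hells, a chromatin remodeller needed for methylation of repeats, was higher in osteosarcoma than in osteoblasts by 1.76 ± 0.33 (adjusted p = 0.00506). Its partner Cdca7 differed by 1.45 ± 0.29 (adjusted p = 0.00695) and the related Cdca7l by 1.61 ± 0.17 (adjusted p = 0.000336). In osteoblasts Cdca7l lay below pre-osteoblasts by 1.01 ± 0.17 (adjusted p = 0.00296), as were Hells (-1.15 ± 0.33, adjusted p = 0.0353) and Cdca7 (-0.99 ± 0.29, adjusted p = 0.0389), whose calls were lost without line 493H, osteoblast samples 1 or 3 or pre-osteoblast samples 2 or 3 (adjusted p up to 0.124), and for Cdca7 also without osteoblast sample 2. Uhrf2, a relative of Uhrf1, stood 0.46 ± 0.15 above pre-osteoblasts in osteoblasts, which did not pass (adjusted p = 0.0566) but did in 9 of 18 alternative settings. Among these were the fits without osteoblast sample 2 (0.0453), line 494H (0.0144) or line 716H (0.0420). Without either line, both outside this comparison, the difference stayed at 0.46.

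A further list held methylation readers and related genes, not all of which need bind methylated DNA. In it Mbd4, a glycosylase that binds methylated DNA, was higher in osteosarcoma than in osteoblasts by 1.09 ± 0.08 (adjusted p = 9.64e-05). The difference of Mbd4 against pre-osteoblasts was 0.44 ± 0.08 (adjusted p = 0.00671). Mbd6 was lower in osteosarcoma by 0.69 ± 0.08 and 0.57 ± 0.08 (adjusted p of 0.000689 and 0.00212). Of 15 demethylation and repair genes, 4 were higher and 2 lower in osteosarcoma than in osteoblasts. Gadd45a, a stress-response gene linked to demethylation, stood at 8.73, 8.50 and 9.08 in osteosarcoma, 12.01, 10.78 and 12.11 in osteoblasts and 8.01, 7.71 and 7.70 in pre-osteoblasts. Relative to osteoblasts it was lower in osteosarcoma by 2.86 ± 0.33 (adjusted p = 0.000545), and osteoblasts exceeded pre-osteoblasts by 3.83 ± 0.33 (14.2-fold, adjusted p = 0.000149). Neil3, a glycosylase of dividing cells, differed by 2.44 ± 0.37 in osteosarcoma against osteoblasts and by -2.19 ± 0.37 in osteoblasts against pre-osteoblasts (adjusted p of 0.00196 and 0.00339).

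Of 8 genes that make or use 2-oxoglutarate, the TET co-substrate, 4 were lower in osteosarcoma and 5 in osteoblasts, each against pre-osteoblasts. Idh1, the cytosolic isocitrate dehydrogenase, had 12.44, 12.42 and 12.31 in osteosarcoma, 12.05, 11.99 and 11.61 in osteoblasts and 13.05, 12.88 and 13.01 in pre-osteoblasts. It was lower in osteosarcoma by 0.59 ± 0.11 (adjusted p = 0.00728) and in osteoblasts by 1.09 ± 0.11 (adjusted p = 0.000367). The mitochondrial Idh2 was lower by 0.44 ± 0.06 and 0.54 ± 0.06 (adjusted p of 0.00208 and 0.000674). Of 11 methyl donor genes, 4 were higher and 2 lower in osteosarcoma than in pre-osteoblasts, among them Mtrr, which reactivates methionine synthase (0.59 ± 0.11, adjusted p = 0.00631), and Mtap, which salvages methionine (-0.77 ± 0.12, adjusted p = 0.00270). Of 6 Tet partners, 1 was higher and 1 lower in osteosarcoma than in osteoblasts.

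Germline genes, often silenced by methylation in somatic cells, had list means of 5.79 to 5.92 over the arrays, below the median gene level of 7.97 and in a range where the method compresses differences. Of 25 measured, 1 was higher and 0 lower in osteosarcoma than in osteoblasts. Tdrkh, a piRNA pathway gene, was that gene, at 9.0, 9.77 and 8.11 in osteosarcoma, 6.58, 6.62 and 6.80 in osteoblasts and 7.57, 7.95 and 7.51 in pre-osteoblasts, with a difference of 2.29 ± 0.35 against osteoblasts (adjusted p = 0.00200). Against pre-osteoblasts Tdrkh was higher in osteosarcoma by 1.29 ± 0.35 (adjusted p = 0.0320), a call lost without line 493H or any single Kusa4b10 sample (up to 0.101). Sycp1, a synaptonemal complex gene, was lower in osteosarcoma than in pre-osteoblasts by 0.60 ± 0.14 (adjusted p = 0.0192), a call lost without pre-osteoblast sample 3 (0.0530). Its levels were near the bottom of the scale, at 4.64, 4.64 and 4.62 in osteosarcoma, 4.86 in each osteoblast sample and 4.91, 5.59 and 5.19 in pre-osteoblasts. Osteoblasts against pre-osteoblasts had 0 called by limma and 2 with an unadjusted p below 0.05.

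**Figure D5:**
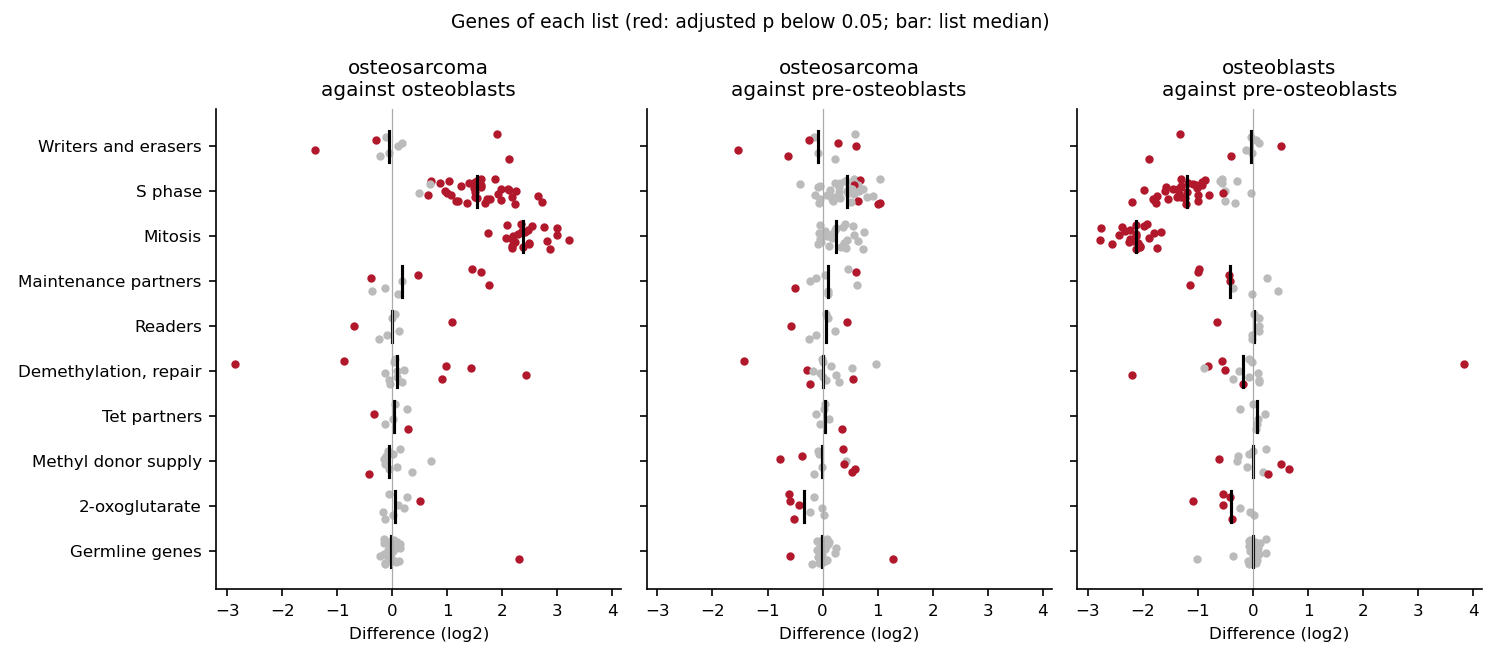
Difference in log2 level of each gene (points, red where the adjusted p is below 0.05) in the methylation gene, pathway, S phase, mitosis and germline lists, with list medians as bars, in the 3 comparisons. Mitosis genes have medians of 2.38 in osteosarcoma against osteoblasts and -2.13 in osteoblasts against pre-osteoblasts.

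Cell type markers were counted next. Over all genes, 27.4% were called in osteosarcoma against osteoblasts, 23.5% in osteosarcoma against pre-osteoblasts and 26.1% in osteoblasts against pre-osteoblasts. In osteosarcoma against pre-osteoblasts, 2 of 9 adipocyte markers were lower and 1 of 10 osteoblast markers was higher. Of 6 smooth muscle markers, 1 was higher and 1 lower there. Of 9 adipocyte markers, 9 were lower in osteosarcoma than in osteoblasts and 6 were higher in osteoblasts than in pre-osteoblasts (mean level 7.67 to 8.23 in osteosarcoma, 10.93 to 11.67 in osteoblasts and 8.40 to 8.94 in pre-osteoblasts). Of 10 osteoblast markers, 6 were higher in osteoblasts than in pre-osteoblasts and 4 were lower in osteosarcoma than in osteoblasts. Their mean levels were 8.68 to 9.20, 10.75 to 11.38 and 8.54 to 8.98 in the same order of groups. Of 9 haematopoietic markers, 1 was higher in osteosarcoma than in osteoblasts and 1 was lower in osteoblasts than in pre-osteoblasts. Of 7 endothelial markers, 0 were called in any comparison. Haematopoietic markers averaged 6.53 to 6.73 over all arrays and endothelial markers 6.40 to 6.83, below the median gene level of 7.97. Of 6 smooth muscle markers, 2 were higher in osteosarcoma than in osteoblasts and 4 lower in osteoblasts than in pre-osteoblasts, and they averaged 9.48 to 9.89 in osteosarcoma, 8.22 to 8.64 in osteoblasts and 9.06 to 9.17 in pre-osteoblasts. The part of these cell types in the methylation gene differences was not tested, and in bulk RNA fewer cells of a type cannot be told apart from less RNA per cell. Rb1 stood at 9.26, 9.67 and 9.85 in osteosarcoma, against 10.65, 10.63 and 10.64 in osteoblasts and 9.28, 9.28 and 9.17 in pre-osteoblasts. Which of its exons the probes cover is not given in the sources used here, so this value does not check the deletion.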

How the data were processed

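The authors deposited RMA values on the log2 scale, 1 per probe set and array; the submitters' processing notes name RMA and mm9, with no version. RMA normalizes between arrays and compresses differences near background, so differences are relative to the other genes. Of 35556 probe sets, 21789 had 1 gene symbol; for the 999 genes with several, the probe set with the highest mean was used. All 9 arrays entered 1 linear model of 3 group means (limma 3.58.1 under R 4.3.3, lmFit and eBayes; 6 residual degrees of freedom), two-sided, Benjamini-Hochberg adjusted over 19938 genes, called below 0.05, with no filter on level. Array medians were 7.43 to 7.56; their number limits the precision. The S phase index is the mean of 39 S phase genes, and 23 mitosis genes were used likewise.

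The members and gene lists were chosen with earlier results of these data known. Named genes are all members, up to 4 called genes and 1 uncalled gene per list and comparison, Pcna, Mcm5, Rrm2, Mki67 and Plk1. Genes most alike to Dnmt1, Uhrf1, Tet1, Tet2, Tet3 and Mbd2 are also named. Those for Dnmt3a, Dnmt3b and Dnmt3l are not reported here. Some list genes are not reported here. Alternatives covered filters, probe set choice, normalization, weights, a variance trend, the index as a covariate, each array left out and a replicate block. The 3 groups share 1 estimate of spread. Leaving out an array outside a comparison can therefore move a call while the difference stays the same. Sample numbers were not treated as pairs. No batch is named in the labels. Promoter windows are RefSeq, GRCm38.p6, and no coordinates of another build were used.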

Additional observations from a re-analysis of the deposited data

How the results depend on the processing

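Of 486 differences of the 9 methylation genes recomputed under the alternatives, 446 kept their direction and side of the threshold, 28 lost and 3 gained a call, and 9 turned sign. The S phase index as a covariate lowered the counts of methylation genes called. In osteosarcoma against osteoblasts 0 of the 9 methylation genes and 0 of the 56 other pathway genes were called, against 0.341% of all genes. In osteoblasts against pre-osteoblasts these counts were 1 and 5, against 4.62% of all genes. In osteosarcoma against pre-osteoblasts 3 methylation genes were called, against 18.6% of all genes. Uhrf1 then stood at -0.30 in osteosarcoma against pre-osteoblasts and Dnmt3a at 0.24 in osteosarcoma against osteoblasts. With only genes above the median level of 7.97, Dnmt3b (mean 7.41) and Dnmt3l (mean 6.20) were not in the fit. Osteosarcoma against pre-osteoblasts then gave 3 methylation genes (Tet1, Tet3 and Mbd2) and 9 S phase genes. With only the osteosarcoma and pre-osteoblast arrays, or with array weights, that comparison gave 2 S phase genes. Quantile normalization again put Tet2 at 0.045 and Pcna at 0.041 in osteoblasts against pre-osteoblasts. The mitosis index put Dnmt1 at -0.54 and 0.84 and Uhrf1 at -0.32 and 0.27 in osteosarcoma against osteoblasts and osteoblasts against pre-osteoblasts, and Uhrf1 at -0.05 in osteosarcoma against pre-osteoblasts. Leaving out each array gave 4 to 5, 3 to 5 and 3 to 4 methylation genes in osteosarcoma against osteoblasts, osteosarcoma against pre-osteoblasts and osteoblasts against pre-osteoblasts, 33 to 39, 2 to 12 and 24 to 34 S phase genes, and 15 to 19, 11 to 20 and 16 to 24 other pathway genes. Leaving out single arrays also turned signs: in osteoblasts against pre-osteoblasts Tet2 ran from -0.15 to 0.11, Pcna from -0.22 to 0.10 and Dnmt3a from -0.081 to 0.030, Uhrf1 in osteosarcoma against pre-osteoblasts from -0.024 to 0.45, and Tet2 in osteosarcoma against osteoblasts from -0.19 to 0.071. With the replicate block, osteoblasts against pre-osteoblasts gave 4 methylation genes, 33 S phase genes and 23 other pathway genes. Osteoblast samples 1 and 2 deviated most like the pre-osteoblast sample of their own number (r of 0.152 and 0.176). Osteoblast sample 3 deviated most like pre-osteoblast sample 1 (0.0766, against 0.0278 for its own number). Each pre-osteoblast sample deviated most like the osteoblast sample of its own number. The labels state no pairing, so the main fit did not take the numbers as pairs. Whether they are pairs was not settled. Beyond the removal of Dnmt3b and Dnmt3l by the level filter, the cause of the changes under these alternatives was not tested. Shares of all genes called in the fits without single arrays and with the block are not reported here.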
